A study of Mus musculus with 9 samples.

Results

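Hemoglobin and erythroid genes were followed through RNA sequencing of dissected mouse midbrain. The 9 genes are the embryonic globins Hbb-y, Hbb-bh1 and Hba-x, the adult globins Hba-a1, Hba-a2, Hbb-bt and Hbb-bs, and the red cell genes Alas2 and Slc4a1. They were chosen by their symbols, and all 9 were found among the 21356 named genes of the deposited table and among the 14029 genes tested. They were compared between 3 floxed control fetuses (Gpr161 f/f), 3 Cre control fetuses (Gpr161 f/+;Wnt1-Cre) and 3 cKO fetuses (Gpr161 f/f;Wnt1-Cre), of the C57BL/6 strain at E13.5. All 9 fetuses carried at least 1 floxed allele of Gpr161, a receptor of the primary cilium that restrains Shh signaling, and both the Cre control and the cKO carried the Cre transgene. The Cre, driven by Wnt1 sequences, acts in the midbrain and in neural crest derivatives. The labels do not say whether the fetuses of a genotype came from separate litters, so the p-values measure the spread between these samples.

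Hemoglobin joins alpha-like and beta-like globin chains around heme. In the mouse embryo the first red cells arise in the yolk sac as large nucleated primitive cells, which make the embryonic beta-like chains of Hbb-y and Hbb-bh1 and the embryonic alpha-like chain of Hba-x together with adult alpha chains. Later, red cells from the fetal liver carry the adult beta chains of Hbb-bs and Hbb-bt, and the replacement of embryonic by adult chains is known as globin switching. At midgestation both kinds of red cell circulate, and blood in the vessels of a tissue is dissected with it. Alas2 encodes the first enzyme of heme synthesis in red cells, and Slc4a1 encodes band 3, the anion exchanger of the red cell membrane.

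In the GENCODE annotation the beta-like genes lie in a cluster on chromosome 7 of GRCm38 (mm10). They are on the minus strand, with the embryonic genes upstream of the adult genes. Hbb-y spans 103851749 to 103853216, Hbb-bh1 spans 103841637 to 103843164, Hbb-bs spans 103826534 to 103828096 and Hbb-bt spans 103812524 to 103813996. The alpha-like genes lie on chromosome 11, on the plus strand, with Hba-x from 32276400 to 32278116, Hba-a1 from 32283511 to 32284465 and Hba-a2 from 32296489 to 32297298. Slc4a1 lies on the minus strand of the same chromosome from 102348824 to 102366203, and Alas2 on the plus strand of chromosome X from 150547375 to 150570638.

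The 150 bases before the start site were available for 7 of the 9 genes from RefSeq (GRCm38.p6) and not for Hbb-bh1 and Slc4a1. The start sites are those of RefSeq, which can differ from the ends of the GENCODE genes given above, so that the windows of Hba-x, Hba-a1 and Hbb-bs lie inside those spans. Of these, 5 are shown, 1 for each class of globin and Alas2, because these genes moved together across the libraries. The capitals mark 4 short motifs, which were searched on both strands, so that a reverse complement is in capitals too. They are CACCC, the letters of the box that factors of the Klf family bind, then CCAAT, the letters of the box of that name, then GATAA, a core that Gata factors bind, and last TATAA, the letters of the TATA box.
Hbb-y (chr7:103853208-103853357, minus strand): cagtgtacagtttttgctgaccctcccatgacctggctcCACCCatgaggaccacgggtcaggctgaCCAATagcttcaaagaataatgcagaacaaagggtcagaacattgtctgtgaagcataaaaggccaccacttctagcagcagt
Hba-x (chr11:32276450-32276599, plus strand): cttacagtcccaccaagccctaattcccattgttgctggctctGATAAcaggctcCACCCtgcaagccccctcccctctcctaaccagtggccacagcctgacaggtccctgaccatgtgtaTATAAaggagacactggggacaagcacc
Hbb-bs (chr7:103827929-103828078, minus strand): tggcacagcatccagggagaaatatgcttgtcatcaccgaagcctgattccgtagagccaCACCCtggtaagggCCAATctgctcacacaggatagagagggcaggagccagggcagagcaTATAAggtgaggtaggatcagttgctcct
Hba-a2 (chr11:32296342-32296491, plus strand): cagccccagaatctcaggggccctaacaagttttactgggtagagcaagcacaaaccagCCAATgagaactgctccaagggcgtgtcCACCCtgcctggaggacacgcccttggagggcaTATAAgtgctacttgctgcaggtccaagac
Alas2 (chrX:150547267-150547416, plus strand): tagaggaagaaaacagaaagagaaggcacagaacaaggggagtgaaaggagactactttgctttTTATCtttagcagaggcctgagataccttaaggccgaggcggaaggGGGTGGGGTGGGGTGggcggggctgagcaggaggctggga
CACCC was found in 7 of the 7 promoters, against 37.4% of 32851 promoters of the same length. CCAAT was found in 5 of 7 (24.5% of all promoters), TATAA in 5 of 7 (14.2%) and GATAA in 2 of 7 (13.3%). The 3 CACCC copies of Alas2 lie side by side on the reverse strand and begin at positions -40, -35 and -30 from the start site. The promoters of Hba-a1 and Hba-a2 were identical over 147 of 147 bases at a shift of 3 bases. These matches describe the letters in these windows and are not evidence of a bound factor.

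The authors deposited log2 values, which they had normalized and, for weakly expressed genes, shrunken. The table holds no read counts, so the depth of the libraries is unknown. Summed on a linear scale, after raising 2 to the deposited value, the libraries came to between 26605102 and 27491808. Gpr161 was at 11.80, 11.74 and 11.78 in the floxed controls, 11.77, 11.91 and 11.96 in the Cre controls and 11.74, 11.95 and 11.94 in the cKO. The cKO libraries were not lower in it. The value is for the whole gene, and the sources used here do not give the deleted exons, so that it does not check the genotypes. The neural progenitor genes Sox2 and Nes and the neuronal genes Tubb3, Dcx and Stmn2 had log2 values over 12 in every library.

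The mean of the cKO was above that of both controls for all 9 genes, by between 1.38-fold and 2.17-fold. Against the floxed control 7 of the 9 passed the test, where 19.5% of all genes tested passed as higher. Against the Cre control 5 passed, where 4.86% of all genes tested did so. The libraries of a genotype differed widely. For all 9 genes, cKO replicates 1 and 3 were above all 6 control libraries. The remaining library, cKO replicate 2, was the lowest of the cKO for every gene and lay within the range of the floxed controls for 8 of the 9. The floxed control replicate 2 was the highest floxed control for every gene, and floxed control replicate 1 the lowest. The SD within genotypes, pooled over the 3 genotypes, was between 0.33 and 0.40 on the log2 scale for the 9 genes, against a median of 0.074 for all genes tested. Every comparison below therefore rests on which libraries are in it. The counts without cKO replicate 2 and without several other libraries are given with the tests, and the range over all libraries is given further below.

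**Figure D1:**
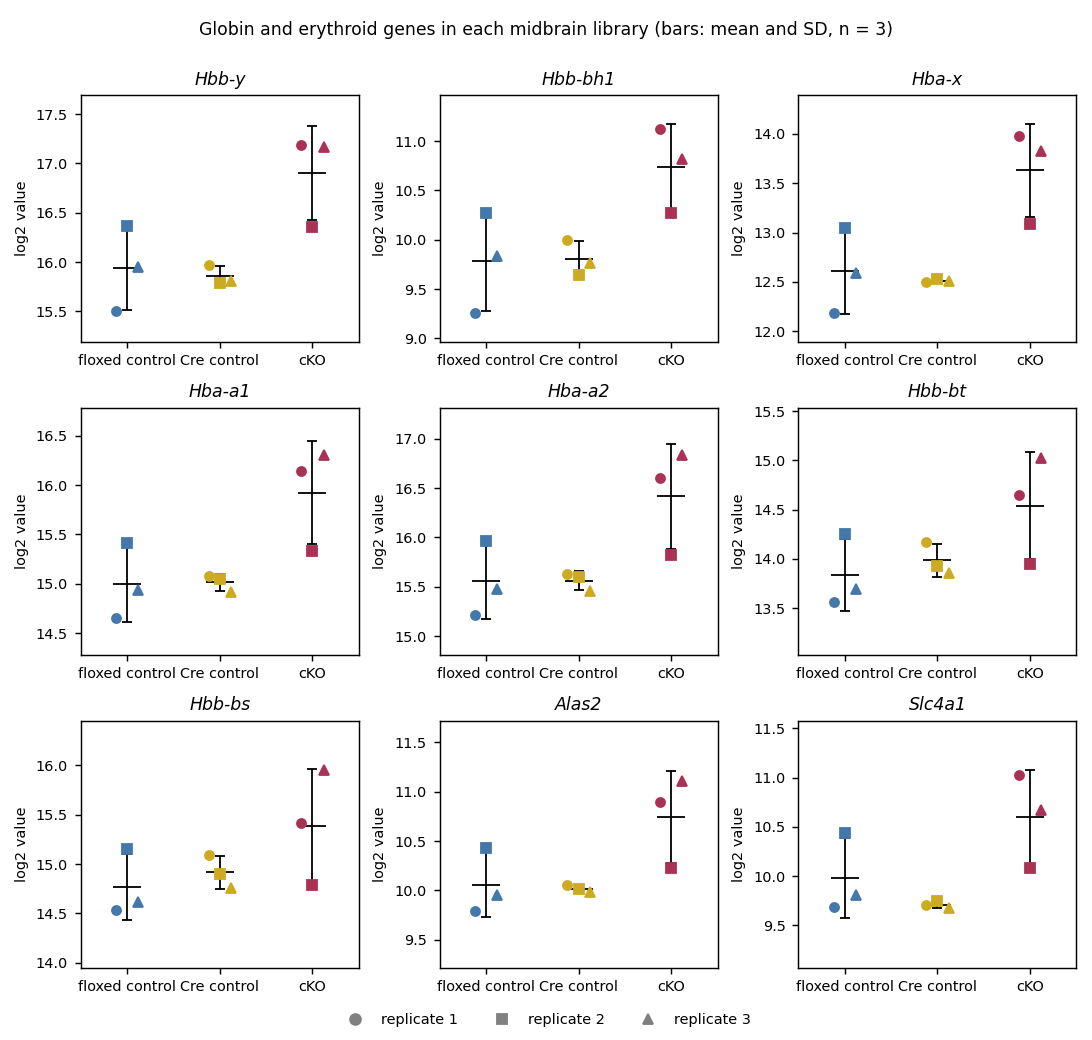
Log2 value of each of the 9 genes in each of the 9 midbrain libraries, by genotype, with 1 point per fetus whose shape gives the replicate number and with bars for the mean and SD (n = 3). In each panel cKO replicates 1 and 3 lie above the 6 controls, and cKO replicate 2 is the lowest of the cKO.

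Of the embryonic globins, Hbb-y was the most abundant. Its log2 values were 15.50, 16.36 and 15.95 in the floxed controls, 15.97, 15.79 and 15.81 in the Cre controls and 17.19, 16.35 and 17.16 in the cKO, where replicate 2 was just below the highest floxed control. Among the 14029 genes tested it ranked between 3 and 21 in every library, in the company of the most abundant transcripts of the tissue. Against the floxed control it rose by a log2 fold change of 0.96 (SE 0.24, 95% interval 0.42 to 1.499, limma adjusted p = 0.0114), a 1.95-fold difference. Against the Cre control it rose by 1.05 (95% interval 0.51 to 1.58, limma adjusted p = 0.0298), and the 3 cKO libraries were all above the 3 Cre controls.

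Hbb-bh1, the other embryonic beta-like gene, was much weaker and ranked between 3038 and 8229. It was at 9.26, 10.27 and 9.84 in the floxed controls, 10.002, 9.64 and 9.77 in the Cre controls and 11.13, 10.27 and 10.81 in the cKO. The log2 fold change was 0.95 relative to the floxed controls (limma adjusted p = 0.0156), with overlap at replicate 2, and 0.93 relative to the Cre controls (adjusted p = 0.0478), with no overlap. The difference between Hbb-y and Hbb-bh1 stayed between 5.97 and 6.35 on the log2 scale in all 9 libraries, so that the embryonic beta-like genes moved by like amounts.

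Hba-x, the embryonic alpha-like gene, was at 12.19, 13.05 and 12.59 in the floxed controls, 12.50, 12.53 and 12.50 in the Cre controls and 13.98, 13.09 and 13.83 in the cKO. It was the only one of the 9 genes for which every cKO library was above every control library of both kinds. It rose by 1.02 relative to the floxed controls (SE 0.24, 95% interval 0.50 to 1.55, limma adjusted p = 0.00783) and by 1.12 relative to the Cre controls (95% interval 0.60 to 1.65, adjusted p = 0.0225), the highest fold changes of the 9. The Cre controls were close to each other in Hba-x, with a mean of 12.51 ± 0.014 (SD, n = 3), against 12.61 ± 0.43 in the floxed control and 13.63 ± 0.48 in the cKO.

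The adult alpha globins followed the embryonic genes. Hba-a1 was at 14.65, 15.41 and 14.94 in the floxed controls, 15.08, 15.05 and 14.91 in the Cre controls and 16.14, 15.33 and 16.30 in the cKO. Hba-a2 was at 15.21, 15.97 and 15.48, at 15.63, 15.60 and 15.45, and at 16.60, 15.82 and 16.84 in the same order. In both genes cKO replicate 2 was below floxed control replicate 2 and above the Cre controls. Hba-a1 rose relative to the floxed controls by 0.92 (limma adjusted p = 0.0138) and relative to the Cre controls by 0.91 (adjusted p = 0.0441). Hba-a2 rose relative to the floxed controls by 0.87 (limma adjusted p = 0.0193), and its difference of 0.86 from the Cre controls did not pass (95% interval 0.31 to 1.40, adjusted p = 0.0542).

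The adult beta globins showed the smallest differences among the globins. Hbb-bt was at 13.57, 14.25 and 13.70 in the floxed controls, 14.17, 13.93 and 13.86 in the Cre controls and 14.64, 13.95 and 15.02 in the cKO. Hbb-bs was at 14.53, 15.15 and 14.62, at 15.09, 14.90 and 14.76, and at 15.42, 14.79 and 15.95 in the same order. For both genes cKO replicate 2 lay inside the range of both control groups. Hbb-bt rose relative to the floxed controls by 0.70 (95% interval 0.15 to 1.252, limma adjusted p = 0.0465), and its difference of 0.55 from the Cre controls missed the limit (adjusted p = 0.169). Hbb-bs passed in neither comparison, with 0.62 relative to the floxed controls (95% interval 0.05 to 1.19, limma adjusted p = 0.0799) and 0.47 relative to the Cre controls (95% interval -0.10 to 1.03, adjusted p = 0.248).

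Alas2, of heme synthesis, and Slc4a1, of the red cell membrane, moved with the globins. Alas2 was at 9.79, 10.43 and 9.95 in the floxed controls, 10.05, 10.01 and 9.99 in the Cre controls and 10.90, 10.22 and 11.11 in the cKO. It rose by 0.69 relative to the floxed controls (limma adjusted p = 0.0270), and the difference of 0.73 from the Cre control did not pass (95% interval 0.26 to 1.20, adjusted p = 0.0564) although the libraries did not overlap. Slc4a1 was at 9.69, 10.44 and 9.81 in the floxed controls, 9.71, 9.75 and 9.67 in the Cre controls and 11.03, 10.08 and 10.68 in the cKO. The difference of 0.62 from the floxed control did not pass (95% interval 0.10 to 1.13, limma adjusted p = 0.0585), and that of 0.88 from the Cre control did (adjusted p = 0.0423). In bulk tissue, more red cells and more of these RNAs per red cell cannot be told apart.

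**Figure D2:**
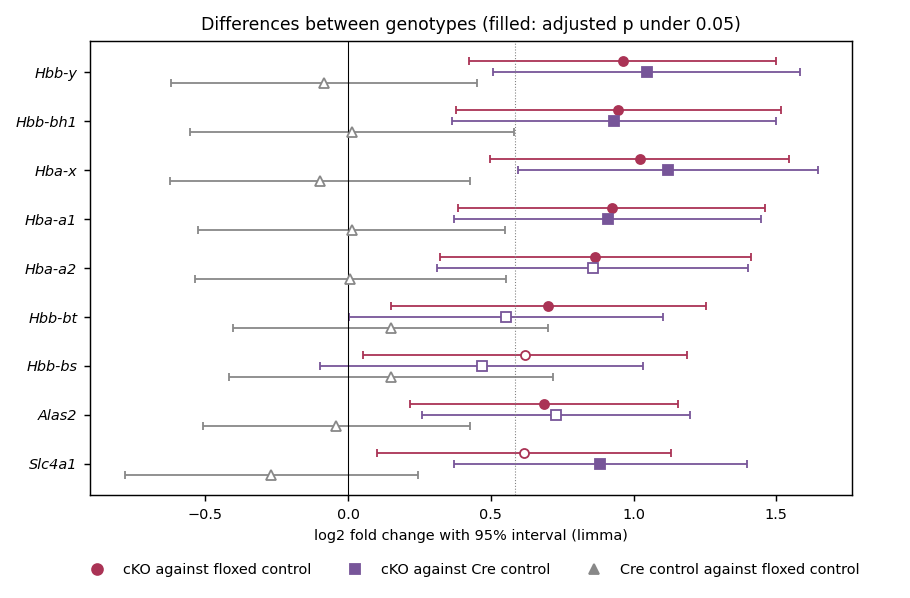
Log2 fold change of each of the 9 genes with its 95% interval (limma, 9 libraries) in the 3 comparisons, with filled symbols where the adjusted p was under 0.05 and a dotted line at a fold change of 1.5. The cKO lies to the right of 0 in both comparisons for all 9 genes, and the Cre control against the floxed control is centred near 0.

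A gene was called at an adjusted p under 0.05 over the 14029 genes tested, and it was a differentially expressed gene (DEG) if its fold change was also over 1.5. In the cKO against the floxed control 7 of the 9 genes were called, all of them higher and all DEGs. Of all genes tested, 19.5% were called higher in this comparison and 1.34% were DEGs that were higher. The median log2 fold change was 0.87 over the 9 genes and 0.011 over all genes tested. Only Hba-x of the 9 had no overlap between these groups, while every cKO library was above every floxed control in 29.9% of all genes tested. The count of 7 became 1 without cKO replicate 1, 2 without floxed control replicate 1, 3 without cKO replicate 3 and 4 without floxed control replicate 3. It became 9 without cKO replicate 2 and 9 without floxed control replicate 2. Hba-x kept its call in each of these fits, with adjusted p between 0.0033 and 0.035 (limma).

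In the cKO against the Cre control 5 of the 9 genes were called, all of them higher and all DEGs, where 4.86% of all genes tested were called higher and 0.335% were DEGs that were higher. They were Hbb-y, Hbb-bh1, Hba-x, Hba-a1 and Slc4a1. The median log2 fold change was 0.88 over the 9 genes and 0.012 over all genes tested. The groups did not overlap for 7 of the 9 genes, with Hbb-bt and Hbb-bs as the exceptions, against 17.8% of all genes tested. Without cKO replicate 1, cKO replicate 3, Cre control replicate 2 or Cre control replicate 3 the count was 0, without floxed control replicate 3 it was 1, and without cKO replicate 2 it was 7. With no filter on low values it was 2, and with only the 6 libraries compared it was 3. Both comparisons use the same 3 cKO libraries, so that they are not independent of each other.

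No difference beyond the spread of the libraries was detected between Cre controls and floxed controls in the 9 genes. The log2 fold changes were between -0.27 for Slc4a1 and 0.15 for Hbb-bs, with a median of 0.0076, and 0 of the 9 were called by limma, where 0.057% of all genes tested were called in either direction. At an unadjusted p under 0.05 the count was also 0, where 17.5% of all genes tested passed that limit. The 95% intervals were wide, for example from -0.62 to 0.45 for Hbb-y and from -0.78 to 0.25 for Slc4a1. For all 9 genes the Cre controls had a smaller SD than the floxed controls and the cKO.

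The 7 globin genes together made up 0.560%, 0.957% and 0.682% of the summed linear values in the floxed controls, 0.789%, 0.719% and 0.669% in the Cre controls and 1.499%, 0.868% and 1.66% in the cKO. The mean share was 0.733% ± 0.203 for the floxed controls, 0.726% ± 0.060 for the Cre controls and 1.34% ± 0.420 for the cKO (SD, n = 3). The cKO mean was 1.83 times that of the floxed control, with overlap at replicate 2, and 1.85 times that of the Cre control, with no overlap. Globins held over 1% of the summed values in cKO replicates 1 and 3 and in 0 of the 6 controls. With 3 libraries in a group an exact permutation test cannot pass a limit of 0.05, and no p is given for these shares or for the ratios that follow.

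Globin switching was described by the log2 difference between embryonic and adult genes within a library, in which the total amount of globin cancels. Hbb-y was above the mean of Hbb-bs and Hbb-bt by 1.45, 1.66 and 1.80 in the floxed controls, 1.34, 1.37 and 1.496 in the Cre controls and 2.16, 1.98 and 1.68 in the cKO. The means were 1.64 ± 0.17, 1.40 ± 0.083 and 1.94 ± 0.24 (SD, n = 3). The 3 cKO libraries were all above the Cre controls, and cKO replicate 3 was inside the range of the floxed controls. The order within the cKO was not that of the globin share, since replicate 3 had the highest share and the smallest difference between embryonic and adult beta globin.

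The other embryonic genes gave overlapping groups. Hbb-bh1 was below the mean of the adult beta genes in every library, by -4.79, -4.43 and -4.32 in the floxed controls, -4.63, -4.77 and -4.54 in the Cre controls and -3.90, -4.10 and -4.67 in the cKO, as log2 differences. Hba-x minus the mean of Hba-a1 and Hba-a2 was -2.74, -2.64 and -2.62, then -2.86, -2.80 and -2.68, then -2.39, -2.49 and -2.74 in the same order. In both, cKO replicates 1 and 2 were above all 6 controls and replicate 3 was within the range of the controls. The embryonic beta-like and alpha-like genes thus ordered the cKO libraries alike, and the means of the genotypes differed by no more than 0.42 for Hbb-bh1 and 0.24 for Hba-x.

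**Figure D3:**
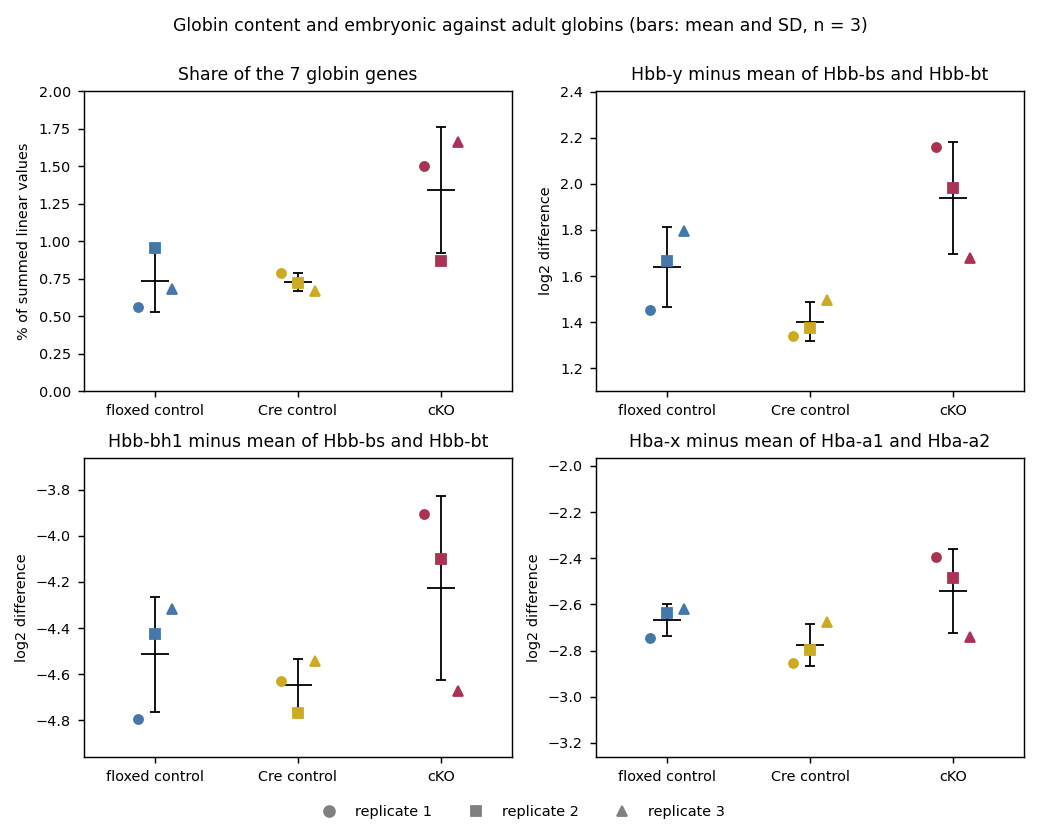
Share of the 7 globin genes in the summed linear values (percent) and the log2 difference of Hbb-y, Hbb-bh1 and Hba-x from the mean of their adult counterparts, with 1 point per library and bars for the mean and SD (n = 3). The globin share of cKO replicates 1 and 3 is above 1%, while in the 3 differences it is cKO replicates 1 and 2 that lie above the controls.

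Levels were compared between genes on linear values per kb of transcript. Averaged over the 9 libraries as log2 values per kb, Hbb-y was the highest at 16.89, followed by Hba-a2 at 16.70, Hba-a1 at 15.83, Hbb-bs at 15.69, Hbb-bt at 14.63, Hba-x at 13.24, Hbb-bh1 at 10.82, Alas2 at 9.25 and Slc4a1 at 7.91. The closest neighbours were Hbb-y and Hba-a2, and Hba-a1 and Hbb-bs. This order is that of the means and was not tested, and the SD of single genes does not measure differences between genes of the same library. Hbb-y made up 56.7%, 60.3% and 62.4% of the beta-like globin per kb in the floxed controls, 54.9%, 55.3% and 57.6% in the Cre controls and 68.3%, 65.5% and 60.6% in the cKO. The embryonic chain was thus the larger part of beta-like globin RNA in every library. Hba-x made up between 4.87% and 6.65% of the alpha-like globin per kb and Hbb-bh1 between 0.767% and 1.05% of the beta-like globin. Alpha-like to beta-like globin RNA per kb was between 0.802 and 0.900 in all 9 libraries. The values per kb use GENCODE lengths, such as 699 bases for Hba-a1 and 554 for Hba-a2. For each of the 7 genes with a promoter window RefSeq places the start site inside the GENCODE gene, furthest for Hba-x, Hba-a1 and Hbb-bs. Other lengths would change the order, the shares and this ratio.

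The adult genes are near-identical copies, and the division of reads between them is uncertain. Of the windows of 31 bases in its transcript, Hba-a2 shares 91.0% with Hba-a1, Hba-a1 shares 71.3% with Hba-a2, Hbb-bs shares 66.9% with Hbb-bt and Hbb-bt shares 59.4% with Hbb-bs. The transcripts of Hbb-y, Hbb-bh1, Hba-x, Alas2 and Slc4a1 share 0% with any other gene. The log2 difference of Hbb-bs from Hbb-bt was between 0.775 and 0.974 over the 9 libraries, with overlap of the genotypes. That of Hba-a2 from Hba-a1 was between 0.538 and 0.565 in the controls and was 0.4598, 0.492 and 0.534 in the cKO, which is lower in each cKO library than in any control.

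Other globin genes were at low levels. Of 9 further globin symbols, 2 were tested. Hbq1b, the theta globin, was between 4.77 and 4.91 in the controls and between 4.87 and 5.08 in the cKO, a log2 fold change of 0.16 relative to the floxed controls (limma adjusted p = 0.0706) and 0.18 relative to the Cre controls (adjusted p = 0.0932). Its values were close to the limit of 1 cpm, which lay between 4.73 and 4.78, where the deposited values are shrunken. Cygb, cytoglobin, which is found in many tissues outside red cells, fell by 0.26 on the log2 scale relative to the floxed controls (limma adjusted p = 0.0102). Its log2 fold change of -0.12 relative to the Cre controls did not pass (limma adjusted p = 0.219). Hbq1a, Hbb-bh2, the muscle globin gene Mb and the neuronal globin gene Ngb were under 1 cpm, counted on the linear values, in all libraries, and their shrunken values allow no comparison.

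Further erythroid genes were described from lists written from general knowledge, beside 38.3% of all genes tested called in either direction relative to the floxed controls and 9.72% relative to the Cre controls. Of 8 genes of heme synthesis, 2 rose and 1 fell against the floxed control. Fech, which inserts the iron, rose by 0.34 (limma adjusted p = 0.0222), and Uros fell by 0.19 (adjusted p = 0.0124). The call of Fech was lost without floxed control replicate 1 or 3 or cKO replicate 1 or 3 (limma adjusted p up to 0.0857). Against the Cre control Fech rose by 0.39 (limma adjusted p = 0.0415), the only call among the further erythroid genes in that comparison. This call was lost in 6 of the 9 fits without a library, those that left out replicate 1 or 3 of the cKO, 2 or 3 of the Cre control, or 1 or 3 of the floxed control (limma adjusted p up to 0.155), with no filter on low values and with only the 6 libraries compared. Fech was at 9.80, 10.04 and 9.85 in the floxed controls, 9.88, 9.84 and 9.84 in the Cre controls and 10.34, 9.98 and 10.39 in the cKO, with the same libraries high and low as for Alas2. The median over the list was 0.091 against the floxed control.

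Of 14 tested genes of the red cell membrane, 4 rose and 1 fell against the floxed control, with a median of 0.26. Ank1, the ankyrin that ties band 3 to the membrane skeleton, rose by 0.53, Kel, a blood group gene, by 0.49, Gypc, a glycophorin, by 0.39 and Ermap by 0.34 (limma adjusted p = 0.00136, 0.0254, 0.00425 and 0.0418), while Add2, an adducin, fell by 0.23 (adjusted p = 0.0157). Ank1 did not follow the 9 genes. It was at 9.23, 9.45 and 9.17 in the floxed controls, 9.84, 9.94 and 9.96 in the Cre controls and 9.88, 9.87 and 9.67 in the cKO, and it was higher in the Cre controls than in the floxed controls (log2 fold change 0.63, limma adjusted p = 0.0337). That call was lost in 5 of the 9 fits without a library, those that left out replicate 2 of the cKO, 2 or 3 of the Cre control, or 1 or 3 of the floxed control (limma adjusted p up to 0.231), with no filter and with only the 6 libraries compared, while the fold change stayed between 0.58 and 0.72. In the cKO against the floxed control Ank1 and Gypc kept their calls in every fit, while Kel lost its call in 3 of the 9 fits without a library, Add2 in 2, and Ermap in 6 and in 4 of the 8 other settings.

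Of 11 tested genes of red cell iron uptake and maturation, 7 rose and 0 fell against the floxed control, with a median of 0.20. Slc25a37, mitoferrin, which brings iron into the mitochondrion for heme, rose by 0.54 (limma adjusted p = 0.00370), with 8.93, 9.10 and 8.94 in the floxed controls and 9.70, 9.36 and 9.54 in the cKO. The others called were Fam210b, Steap3, Tfrc, Bnip3l, Epor and Trim10, with log2 fold changes between 0.15 and 0.34, and Tfrc, the transferrin receptor, and Epor, the erythropoietin receptor, are also used by cells outside blood. The calls of Slc25a37 and Fam210b held in every fit, whereas Trim10 lost its call in 6 of the 9 fits without a library and 5 of the 8 other settings, and Epor in 6 of the 9 and 1 of the 8. Steap3 lost it in 3, Tfrc in 4 and Bnip3l in 4 of the 9. Of 6 genes of heme breakdown and export, 1 was called, Blvrb, a biliverdin reductase of red cells, which rose by 0.55 (limma adjusted p = 0.00484). Against the Cre control 0 genes of these 3 lists were called by limma, with 6 of 14, 7 of 11 and 2 of 6 at an unadjusted p under 0.05, against 29.3% of all genes tested.

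Of 8 tested transcription factors of erythroid cells, 0 were called higher by limma in either comparison of the cKO. At an unadjusted p under 0.05, 1 was higher and 2 were lower relative to the floxed controls, and 3 were higher and 1 was lower relative to the Cre controls, where 48.1% and 29.3% of all genes tested passed that limit in either direction. The median log2 fold change was 0.028 in the first comparison and 0.058 in the second. Klf1, which drives adult beta globin, was between 4.72 and 4.89 in the controls and between 4.86 and 5.04 in the cKO, close to the limit of 1 cpm. Gata1 and Gfi1b were under that limit in all libraries and were not tested. Tal1 (11.22 to 11.58), Sox6 (9.80 to 10.06), Zfpm1 (9.33 to 9.74) and Lmo2 (9.43 to 9.82) had far higher values. In bulk tissue the cells that these RNAs came from cannot be told apart. The counts and medians of this list therefore need not reflect red cells. Bcl11a, a repressor of embryonic globins that is also expressed in neurons, fell by 0.42 relative to the floxed controls (limma adjusted p = 0.00191). Its log2 fold change of -0.22 relative to the Cre controls did not pass (limma adjusted p = 0.0759). Klf1, Gata1 and Gfi1b were thus near or under the lowest level tested, where the values are also shrunken.

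**Figure D4:**
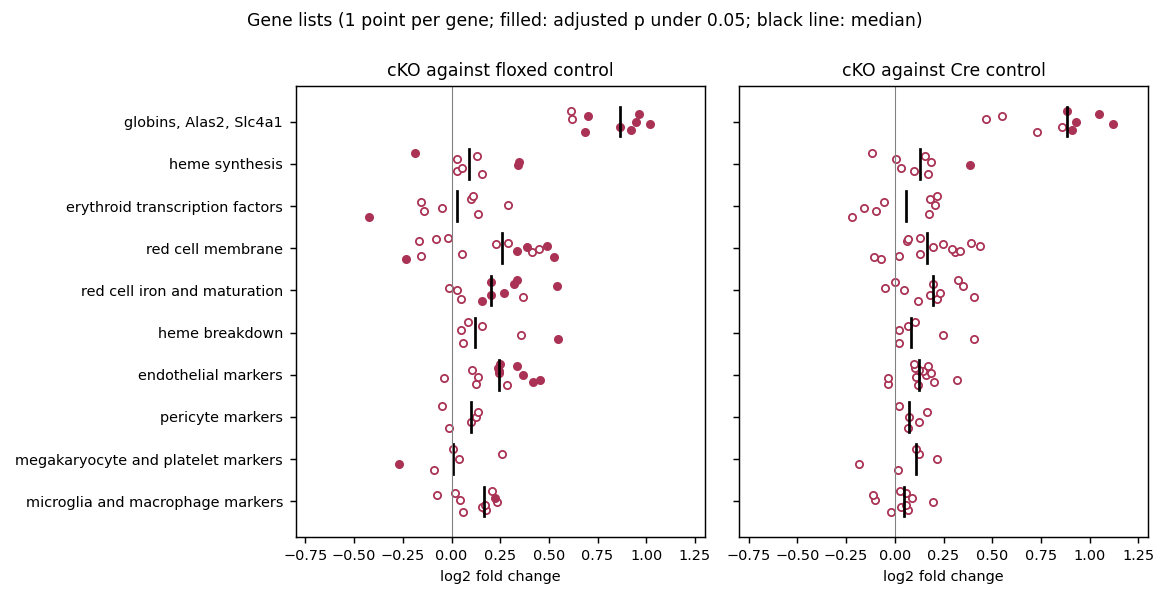
Log2 fold change of each tested gene of 10 lists in the cKO relative to each of the 2 controls, with filled points where the adjusted p was under 0.05 (limma) and a black line at the median of the list. The medians of the 9 globin and erythroid genes, 0.87 and 0.88, lie to the right of those of the other lists.

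Markers of other cells in and around vessels were read beside these results. Of 13 endothelial markers, 7 rose and 0 fell in the cKO against the floxed control, where 19.5% of all genes tested were called higher. The median of the list was 0.25. Among those called were Egfl7, higher by 0.42 (limma adjusted p = 0.00284), Emcn by 0.46 (adjusted p = 0.0171) and Pecam1 by 0.25 (adjusted p = 0.0219). Egfl7 kept its call in every fit, while Emcn lost it in 3 and Pecam1 in 5 of the 9 fits without a library. Against the Cre control 0 were called by limma, where 9.72% of all genes tested were called in either direction, and the median was 0.13. At an unadjusted p under 0.05 there were 2 of 13, where 29.3% of all genes tested passed that limit. The summed linear values of the 13 markers were between 7779 and 9863 in the floxed controls, between 8579 and 10560 in the Cre controls and between 10222 and 10906 in the cKO. The highest sum of all libraries was in cKO replicate 2, the cKO library with the least globin. None of these markers was at 0, and their part in the globin difference was not tested.

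Of 5 pericyte markers 0 were called by limma against either control, and 0 were at an unadjusted p under 0.05. Of 5 tested markers of megakaryocytes and platelets, which also come from blood, 0 rose and 1 fell relative to the floxed controls (Gp1bb, by 0.27, limma adjusted p = 0.0338), with a median of 0.0089. Of all genes tested, 38.3% were called in that comparison. Relative to the Cre controls 0 of the 5 were called by limma, with 4 above 0 and a median of 0.11. All 7 markers of this list, tested or not, summed to between 639 and 745 in the floxed controls on the linear scale. The sums were between 680 and 712 in the Cre controls and between 719 and 759 in the cKO. Of 10 markers of microglia and macrophages, which take up red cells, 1 rose relative to the floxed controls (Fcer1g by 0.22, limma adjusted p = 0.0412, lost in 6 of the 9 fits without a library), with 5 of 10 at an unadjusted p under 0.05, all higher, and a median of 0.17, where 48.1% of all genes tested passed that limit. Against the Cre control 0 were called by limma and 0 were at an unadjusted p under 0.05. Their summed linear values were between 2816 and 3300, between 3190 and 3308 and between 3238 and 3581 in the floxed, Cre and cKO libraries in turn. Of 10 neural markers of the midbrain, Nes and Sox2 rose and Dcx, Stmn2, Pax7 and Tubb3 fell against the floxed control. Of all genes tested, 38.3% were called in that comparison. Against the Cre control Nes and Sox2 rose and Dcx and Stmn2 fell, where 9.72% of all genes tested were called. That call was lost in 8 of the 9 fits without a library for Dcx, 7 for Stmn2 and 2 for Sox2. Otx2, En1, En2 and Lmx1b were called in neither comparison. The part of the neural markers in the globin difference was not tested.

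The 9 genes followed each other closely from library to library. Pearson's r between pairs was between 0.782 (Hbb-bs and Slc4a1) and 0.999 (Hba-a1 and Hba-a2) over the 9 libraries, and between 0.711 and 0.998 with the mean of each genotype removed. These values share the same libraries and, for the adult copies, the same reads. Among the 10 genes outside the list whose profile was most like the mean profile of the 9 were Cited4 (r = 0.995), Fech (0.989), Ube2l6 (0.987), Fth1, Hsd3b6, Hbq1b, Lyl1, Trim10 and Nudt4 (0.967), over 9 libraries. With the mean of each genotype removed the closest 10 included Cited4 (r = 0.987), Ube2l6 (0.982), Fech (0.977), Mob4, Gpx1, Cox6b2, Fth1 and Kcnd1 (0.948). Cited4, Fech, Ube2l6 and Fth1, the heavy chain of ferritin, were in both sets.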

How the data were processed

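Poly-A selected RNA from 9 midbrain samples (3 per genotype, grouped by the labels) was sequenced by the authors, who deposited 1 table of log2 values. These had been normalized and, where expression is low, shrunken, as read from the values, since the transformation is not named. The submitters' processing notes name FastQC 0.10.1, kallisto 0.46.1, DESeq2 and mm10 with no role or order. The cKO titles spell the gene Gpt161.

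Of the 27360 rows, the 14029 named genes that reached 1 cpm on linear values in 3 or more libraries were tested with limma 3.58.1 in R 4.3.3. The model had 1 mean for each genotype over the 9 libraries, eBayes with a trend, two-sided tests and Benjamini-Hochberg adjustment over the 14029 genes, and it was tested on simulated data. DEGs passed an adjusted p of 0.05 and a fold change of 1.5. Rows at 0 in all libraries were counted as 0 in linear sums. Positions and transcript lengths came from GENCODE M21 and promoters from RefSeq.

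Named were the 9 genes, other measured globins, up to 6 genes per list with a call in any comparison (smallest adjusted p), and the 10 genes closest in profile. Gata1, Gfi1b, Klf1, Tal1, Sox6, Zfpm1, Lmo2, Gpr161 and the remaining calls of a list were named outside this rule, after their values were seen. The members and the lists were chosen with earlier results of these data known. Alternatives were the filter, the trend, the scaling (medians or quantiles), only the 6 libraries compared, the replicate number as a block, library weights, and leaving out single libraries. Some genes that the rule names are not reported here.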

Additional observations from a re-analysis of the deposited data

How the results depend on the processing

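The count of the 9 genes called against the floxed control was 6 to 7 over the 8 other settings and 1 to 9 when each library was left out. Against the Cre control the 5 called genes became 2 with no filter on low values, 3 with only the 6 libraries compared, 2 with the replicate number as a block and 0 to 7 when each library was left out. Between the 2 control groups the count was 0 in every fit. Over all genes tested, the 1363 called in the cKO relative to the Cre control became 237 to 3292 without a library and 437 to 4096 in the other settings, and the 8 called between the controls became 1 to 57 and 3 to 217. Hba-x against the floxed control passed in all of them, while Hbb-bt passed in 3 of the 9 fits without a library and 1 of the 8 others.

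The replicate numbers were shared across genotypes without a stated pairing. Deviations of same-numbered libraries correlated between -0.027 and 0.26, not always above 0.1, and those of differently numbered libraries between -0.28 and 0.16. No pairing was used in the report, and whether libraries of the same number share a source was not tested. The cause of these changes was not tested.

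With the log2 of the summed adult copies in place of their mean, Hbb-y minus adult beta was 0.56, 0.33 and 0.88 in the floxed control, Cre control and cKO, Hbb-bh1 minus adult beta was -5.59, -5.72 and -5.29, and Hba-x minus adult alpha was -3.69, -3.80 and -3.56. The order of the genotypes remained. The sum of copies is larger than their mean by construction.

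Between the control groups (Cre minus floxed), differences near 0 changed sign. Array weights gave -0.033 for Hbb-bh1, -0.0098 for Hba-a1 and -0.016 for Hba-a2, and quantile normalization gave -0.0034 for Hba-a1 and -0.024 for Hba-a2. Without each library in turn the log2 fold change ranged from -0.30 to 0.13 for Hbb-y, -0.25 to 0.26 for Hbb-bh1, -0.31 to 0.12 for Hba-x, -0.16 to 0.22 for Hba-a1, -0.16 to 0.21 for Hba-a2 and -0.17 to 0.15 for Alas2. Against both controls the log2 fold changes of the cKO stayed above 0 for all 9 genes in every fit. Depth is unknown, and 3 libraries a group leave wide intervals.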
